A study of Drosophila melanogaster with 6 samples.

Results

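Chromatin at the odorant receptor (Or) and gustatory receptor (Gr) genes of Drosophila melanogaster was examined by ATAC-seq in wing imaginal discs, the larval epithelial sheets that form the adult wings. The assay marks open DNA by the adapters that the Tn5 transposase puts into it, and stretches rich in insertions are reported as peaks. The members were all protein-coding genes of the dm6 annotation whose symbol is Or or Gr followed by a number and a letter. This rule gave 119 of 13986 genes, 59 Or and 60 Gr genes, of which 27 lie on 2L, 28 on 2R, 22 on 3L, 28 on 3R and 14 on X. It uses no measured value, and it leaves out the co-receptor gene *Orco*, whose symbol has another form.

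All larvae carried the *tub-Gal4* driver, which is active throughout the disc, together with *tub-Gal80*, which holds the driver back at low temperature. The driver expressed an RNAi against *Cdk1*, the kinase that brings cells into mitosis (*Cdk1-i*), or *fzr*, an activator of the anaphase-promoting complex that moves cells into an endocycle, or GFP (control). Every genotype spent 7 days at 17 °C followed by 2 days at 31 °C, so the temperature shift was shared by the controls. There were 2 libraries of pooled discs for each genotype, stated to be biological replicates.

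Genotypes follow the sample labels here, and the names under which the *Cdk1-i* and *fzr* lists were deposited exchange these genotypes. With exchanged labels, every value given for the libraries labelled *Cdk1-i* belongs to *fzr* and the reverse, so no direction below is tied to a genotype more firmly than its label. The 5′ peaks of the targeted genes do not settle this, because RNAi acts on the transcript and a transgene has its own promoter. Signal in the exons of these genes was not examined. The peak at the 5′ end of *Cdk1* stood at percentiles 32.6 and 28.9 of the *Cdk1-i* lists and 52.3 and 74.2 of the *fzr* lists, and control replicate 1 had none while control replicate 2 had one at 75. At *fzr*, the 5′ peak stood at 63.6 and 58.5 in *Cdk1-i*, 63.9 and 64.5 in *fzr* and 93.0 and 70.1 in control libraries.

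Insect odorant receptors are membrane proteins, found in the adult fly in neurons of the antenna and maxillary palp. Most of these neurons choose a single Or gene and pair its product with *Orco* to form an ion channel opened by odours. Gustatory receptors are relatives of the same superfamily, found in taste neurons of the labellum, legs, wing margin and pharynx, where they detect sugars, bitter compounds or pheromones, and in a few olfactory neurons that detect carbon dioxide. Both families are expressed in few cells, and the undifferentiated epithelium of the larval disc holds hardly any mature chemosensory neuron.

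The peak regions of 4 receptor genes with a high peak in all 6 libraries are shown first, because these were the strongest receptor peaks that are not near the start of another kind of gene. They are written 5′ to 3′ on the plus strand from the RefSeq sequence of dm6 (Release 6), as 151 bases each. For *Gr39a*, *Gr77a* and *Or83a* these are the bases around the median summit, and for *Or67a* the bases just before the gene, since its summit lies 50 bases inside the annotated 5′ UTR. The summits of *Gr77a* and *Or83a* lie 627 and 671 bp upstream, outside the 500 bp used to count a peak, which their peaks reach only with an edge. Capitals mark a match on either strand to any of the 7 motifs searched, which are spelled out with their shares further on. The window of *Or67a* is chr3L:9528916-9529066, that of *Gr39a* chr2L:21293368-21293518, that of *Gr77a* chr3L:20739982-20740132 and that of *Or83a* chr3R:5399792-5399942.
Or67a: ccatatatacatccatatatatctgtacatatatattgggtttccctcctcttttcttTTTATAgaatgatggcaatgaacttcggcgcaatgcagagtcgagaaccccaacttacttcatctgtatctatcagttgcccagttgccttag
Gr39a: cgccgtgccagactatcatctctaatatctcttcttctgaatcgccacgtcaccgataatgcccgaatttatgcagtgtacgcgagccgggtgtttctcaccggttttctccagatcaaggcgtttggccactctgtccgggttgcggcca
Gr77a: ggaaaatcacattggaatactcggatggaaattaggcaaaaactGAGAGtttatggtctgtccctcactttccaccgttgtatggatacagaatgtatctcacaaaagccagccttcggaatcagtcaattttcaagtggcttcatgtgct
Or83a: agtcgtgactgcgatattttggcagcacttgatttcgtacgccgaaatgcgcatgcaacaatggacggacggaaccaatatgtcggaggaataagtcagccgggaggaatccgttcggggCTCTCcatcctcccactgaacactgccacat
The window of *Gr39a* held none of the motifs. That of *Or67a* held 1 match to TATAAA, the TATA box, on the minus strand, which is opposite to the gene. Those of *Gr77a* and *Or83a* held 1 match each to GAGAG, the core of the GAGA factor site, in *Or83a* on the minus strand.

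Each library has its own list of peaks, in which every peak has a fold enrichment over the local background. Because the lists differ in scale, fold enrichment was turned into a percentile of the list, so that 100 is the strongest peak of a library. A gene counted as having a peak when 1 or more bases of a peak lay in its body or the 500 bp before its 5′ end, and its value was its highest peak. The lists held 36617 and 36100 peaks in *Cdk1-i*, 33335 and 27119 in *fzr* and 36715 and 35404 in control. The list of *fzr* replicate 2 was the shortest, and its peaks on X were 14.1% as many as those on the autosomes, against 18.5% to 19.6% in the other 5 libraries. The lists hold no read counts, so sequencing depth is unknown, and a gene without a peak is one where none was called.

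As a check of the tissue, all 10 genes taken as markers of wing disc epithelium had a peak in their window in all 6 libraries, among them *vg*, *nub* and *ap*. Of 8 neuronal genes, 7 had a window peak in all 6 libraries and 2, *elav* and *Appl*, had one at the 5′ end in all 6, whereas *nSyb*, *fne* and *futsch* had none at the 5′ end in any. Of 4 hemocyte genes, *Hml* had a 5′ peak in all 6 libraries, while *NimC1* and *He* had no peak at all. All 4 genes of adult muscle precursors, both tracheal genes and the hemocyte gene *Pxn* also had a window peak in all 6 libraries, so this measure does not set the epithelium apart. A peak in a window is not a measure of expression, and in whole discs an opening in few cells and a weak opening in many cannot be told apart.

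Most receptor genes had no peak. The number with a peak was 27 and 26 of 119 in *Cdk1-i* (22.7% and 21.8%), 21 in each *fzr* library (17.6%) and 26 and 23 in control (21.8% and 19.3%). Over all 13986 protein-coding genes the share was 47.4% and 47.7% in *Cdk1-i*, 47.1% and 46.5% in *fzr* and 46.9% and 47.3% in control. The receptor genes were below all genes in each of the 6 libraries.

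The means were 22.3% ± 0.594 in *Cdk1-i*, 17.6% ± 0 in *fzr* and 20.6% ± 1.78 in control (SD, n = 2 each). The *Cdk1-i* share was 1.68 percentage points above control and the *fzr* share 2.94 points below it. For the other protein-coding genes these differences were 0.436 and -0.245 points. An exact two-sided permutation test of 2 against 2 libraries does not go below p = 0.333, so neither difference could pass that test at 0.05. With all lists cut to the same length, the *fzr* difference was -0.420 points. Without control replicate 1 the *Cdk1-i* difference was 2.94 points and the *fzr* difference -1.68 points, and without control replicate 2 they were 0.420 points (*Cdk1-i*) and -4.20 points (*fzr*).

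**Figure D1:**
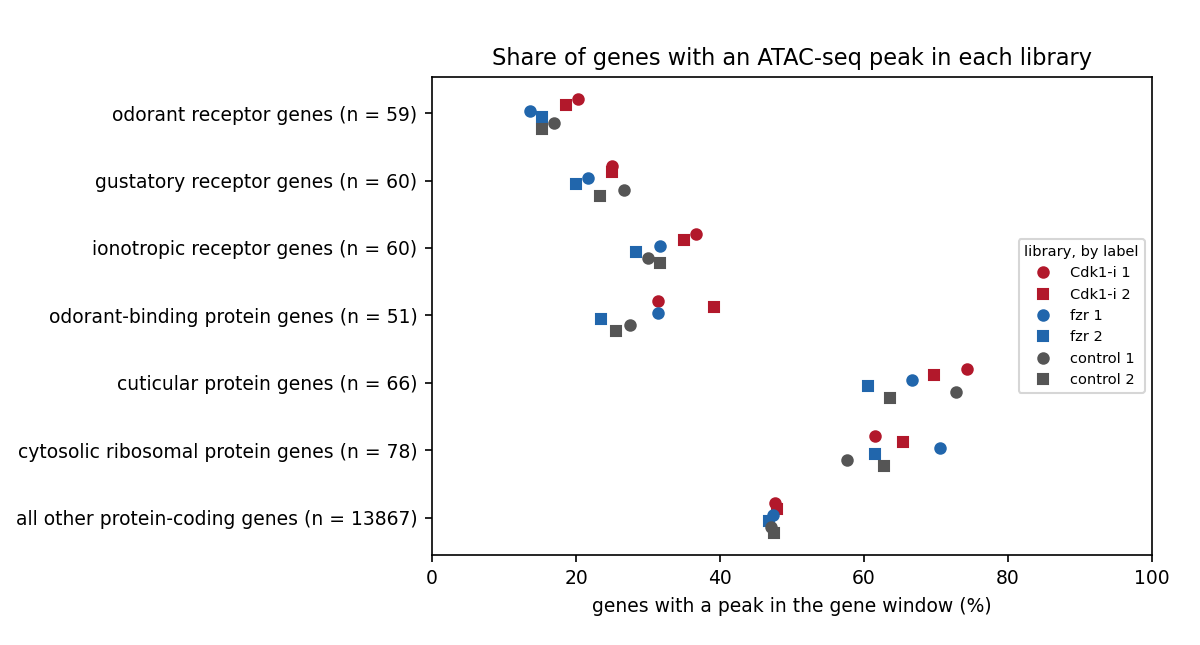
Percent of genes of each family with a peak in the gene body or the 500 bp before it (x axis), with 1 point for each library, coloured by labelled genotype. The points lie between 13.6% and 20.3% for the Or genes and between 20% and 26.7% for the Gr genes, and those of all other protein-coding genes between 46.8% and 47.9%.

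The receptor genes were shorter than others, and gene length moved with the presence of a peak. Their median length was 1444 bp, against 2177 bp for other protein-coding genes. Receptor genes with a peak in any library had a median length of 1678.5 bp, and those without 1411 bp. Among 5605 other genes of receptor length (1199 to 3520 bp, the 5th to 95th percentile of the receptors, a band chosen after the values were seen), a mean of 36.1% had a peak, against 20.2% of receptor genes. Around the 5′ end alone (500 bp on either side), the means were 16.4% for receptor genes, 37.6% for all other genes and 34.1% for genes of receptor length.

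Peaks near the start of a neighbouring gene were then set aside. For a receptor gene, a peak was called own when it did not overlap the 500 bp on either side of a transcript start of a gene that is not a receptor. For any other gene the rule was stricter, since the start of every other gene counted, also one of the same family. With own peaks alone, a mean of 17.4% of receptor genes had a peak, against 35.6% of other genes and 20.6% of other genes of receptor length. The gap to genes of receptor length was smaller in this measure than in the count of any peak. The rules differ between receptor and other genes. The share of the other genes was not counted under the receptor rule, and neither gap was tested.

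Among other families, the means in the gene window were 32.2% for 60 ionotropic receptor genes (the Ir family, a separate class of chemosensory channels), 29.7% for 51 odorant-binding protein genes (Obp, secreted carriers of odours), 67.9% for 66 cuticular protein genes (Cpr) and 63.2% for 78 genes of cytosolic ribosomal proteins. All 6 receptor points lay below all 6 points of the Cpr and ribosomal protein families. With own peaks alone, the ribosomal protein genes had a mean of 20.1%. The Gr genes had a mean of 23.6% and the Or genes of 16.7%, and the Gr share was the higher in each of the 6 libraries, with no test made. With own peaks alone the order turned round in 3 of the 6 libraries, and the means were 18.1% for Gr and 16.7% for Or genes. Of the 13 receptor genes with a peak in all 6 libraries, 8 were Gr and 5 were Or genes.

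Counted over libraries, 83 receptor genes (69.7%) had no peak anywhere, against 41.5% of other genes. A peak in any library was present at 36 (30.3%), and a peak in all 6 at 13 (10.9%), against 37.3% of other genes. The remaining 23 had a peak in 1 to 5 libraries, with 7 of them in 1 library. A gene's value is its highest peak, and the ranks were not matched for gene length, whose median is greater in the other genes. The receptor peaks that were called were of middle rank. Their median percentile was 62.5 and 59.0 in *Cdk1-i*, 49.5 and 57.6 in *fzr* and 61.1 and 62.4 in control, whereas the peaks of other genes had medians of 86.0 and 86.0 in *Cdk1-i*, 85.8 and 81.8 in *fzr* and 87.6 and 85.1 in control. Between 3 and 6 receptor genes in a library had a peak at or over percentile 90, which is 13.04% to 23.8% of those with a peak, against 33.0% to 44.2% of other genes with a peak.

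**Figure D2:**
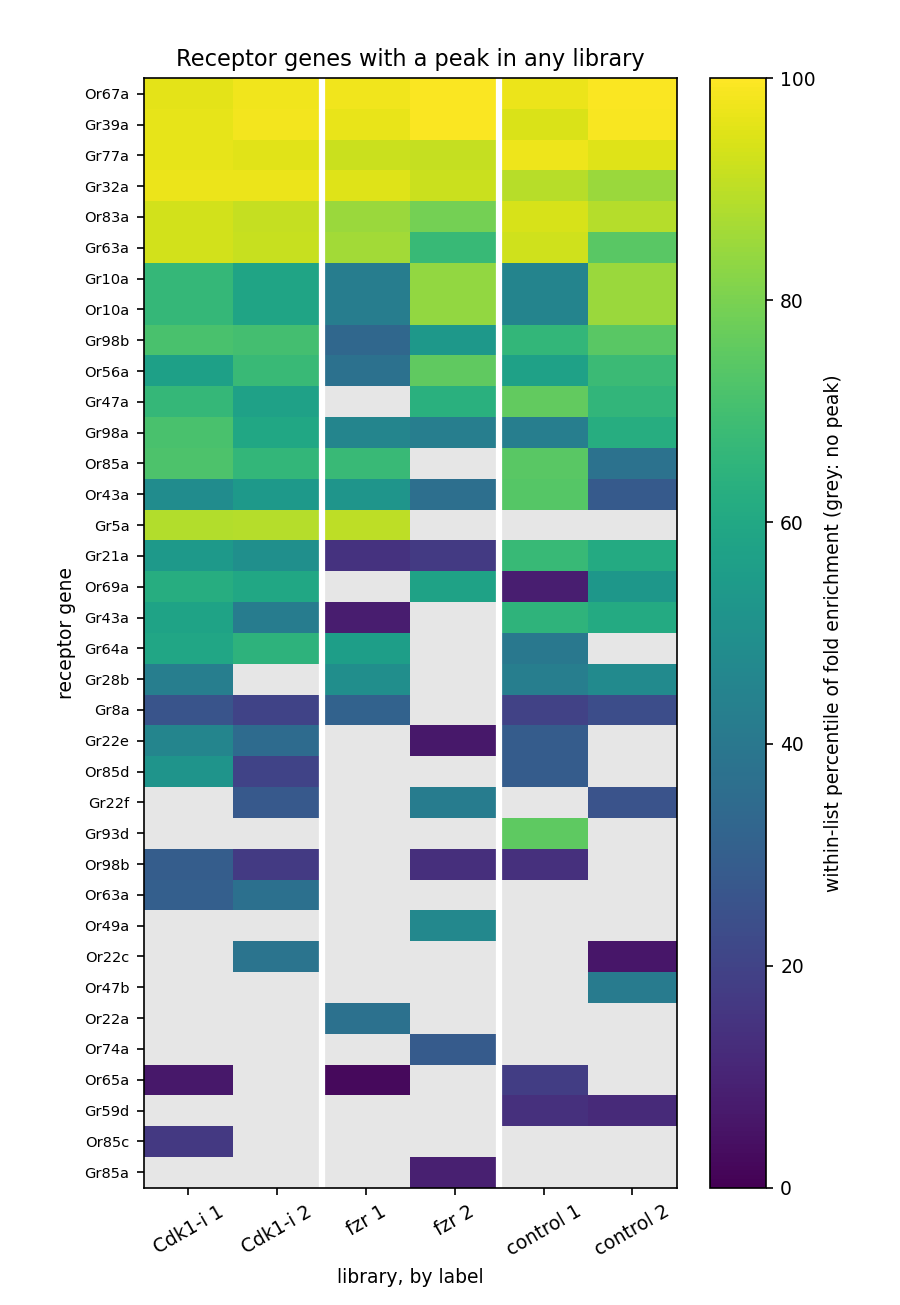
Within-list percentile of the highest peak (colour) of the 36 receptor genes with a peak in any library (rows, by mean over the 6 libraries), in each library (columns), with grey for no peak. *Or67a*, *Gr39a*, *Gr77a* and *Gr32a* lie at or over percentile 84.8 in every library, and the lower rows are mostly grey.

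Some receptor genes of known ligand or use had no peak. *Gr64f*, a co-receptor for sugars, *Gr66a*, a bitter receptor, *Or42b*, a receptor for food esters, and *Or67d*, the receptor for the male pheromone cis-vaccenyl acetate, had none in any library. *Or22a*, another ester receptor, had a single peak at percentile 37.3 in *fzr* replicate 1. *Or47b*, which detects fatty acid pheromones, had a single peak at 41.6 in control replicate 2.

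*Gr28b*, with roles in heat and light avoidance as well as taste, had a peak in 1 *Cdk1-i* library (42.8), 1 *fzr* library (49.5) and both control libraries (42.7 and 47.7). These peaks fell into 2 intervals, one 511 bp before the 5′ end of the gene and one in an intron. *Or56a*, the receptor for geosmin, had a peak in all 6 libraries, at percentiles 56.8 and 67.8 in *Cdk1-i*, 37.3 and 75.5 in *fzr* and 57.4 and 68.1 in control. The groups overlapped, and the summit lay past the 3′ end of the gene, 1860 bp from its 5′ end.

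By mean percentile, the highest receptor peak was that of *Or67a* (FBgn0036009, chr3L:9529067-9531386, plus strand), an odorant receptor gene. Its fold enrichment was 12.9 and 15.4 in *Cdk1-i*, 16.8 and 12.6 in *fzr* and 11.97 and 13.6 in control. The percentiles were 95.9 and 98.0 in *Cdk1-i*, 98.0 and 99.4 in *fzr* and 97.1 and 99.3 in control, so the groups overlapped. The merged interval, chr3L:9528483-9529396, spans the 5′ end, and the nearest start of a gene that is no receptor, *CG33700*, is 3573 bp from the summit. It was the only own peak with a summit in a 5′ UTR.

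*Gr39a* (FBgn0264556, chr2L:21290734-21297686, plus strand), which encodes several taste receptor isoforms from separate first exons, had a peak of similar rank. Its fold enrichment was 13.2 and 15.8 in *Cdk1-i*, 14.8 and 12.5 in *fzr* and 9.62 and 13.1 in control. The interval chr2L:21293091-21293666 lies in an intron, 2709 bp into the gene and 1110 bp before the nearest of its 4 annotated starts. Since *Gr39a* lies within *Mondo*, which encodes a sugar-responsive transcription factor, the peak cannot be assigned to one of these genes.

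*Gr77a* (FBgn0045474, chr3L:20737569-20739430, minus strand) lies within *CG13252*, and its interval, chr3L:20739691-20740335, had its summit 627 bp before the 5′ end. The fold enrichment was 13.1 and 12.2 in *Cdk1-i*, 11.3 and 7.04 in *fzr* and 12.4 and 8.62 in control. *Or83a* (FBgn0037322, chr3R:5397643-5399196, minus strand), which lies within *CG1172*, had its summit 671 bp upstream, in the interval chr3R:5399545-5400157, with a fold enrichment of 10.9 and 9.58 in *Cdk1-i*, 8.44 and 5.02 in *fzr* and 9.46 and 6.31 in control. At both genes the lowest value was that of *fzr* replicate 2, the library with the shortest list.

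The other genes with an own peak in all 6 libraries had peaks of middle rank. *Or10a*, a receptor for methyl salicylate, and *Gr10a* share their annotated coordinates and hence 1 interval with a summit 364 bp upstream. Its percentile was 66.5 and 58.5 in *Cdk1-i*, 42.4 and 83.6 in *fzr* and 45.3 and 85.1 in control, so both the *fzr* and the control replicates differed more from each other than the genotypes did. *Or43a* had its highest peak at 48.8 and 53.8 in *Cdk1-i*, 52.3 and 36.4 in *fzr* and 73.8 and 28.4 in control. *Gr98a* had 71.2 and 59.6 in *Cdk1-i*, 45.5 and 42.9 in *fzr* and 42.7 and 62.4 in control, and these groups overlapped too.

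Seen as intervals merged over the 6 lists, the receptor windows held 40 intervals, 12 of them with a peak in all 6 libraries. Of the 40, 35 were own and 5 were near the start of a gene that is no receptor. In the 36 pairs of own interval and gene, the summit lay upstream in 24, in an intron in 6, downstream in 4, in a 5′ UTR in 1 and in a coding exon in 1. In 10 of the 36, the summit was within 500 bp of the 5′ end. In 5 of the 36, among them *Gr77a*, the summit lay inside a gene that is no receptor. An own peak therefore need not belong to the receptor gene. Asking for at least 0.5 of the peak inside the window left a mean of 10.2% of receptor genes with a peak, against 43.8% of other genes, and *Gr21a*, *Gr39a*, *Gr63a* and *Or67a* kept one in all 6 libraries.

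**Figure D3:**
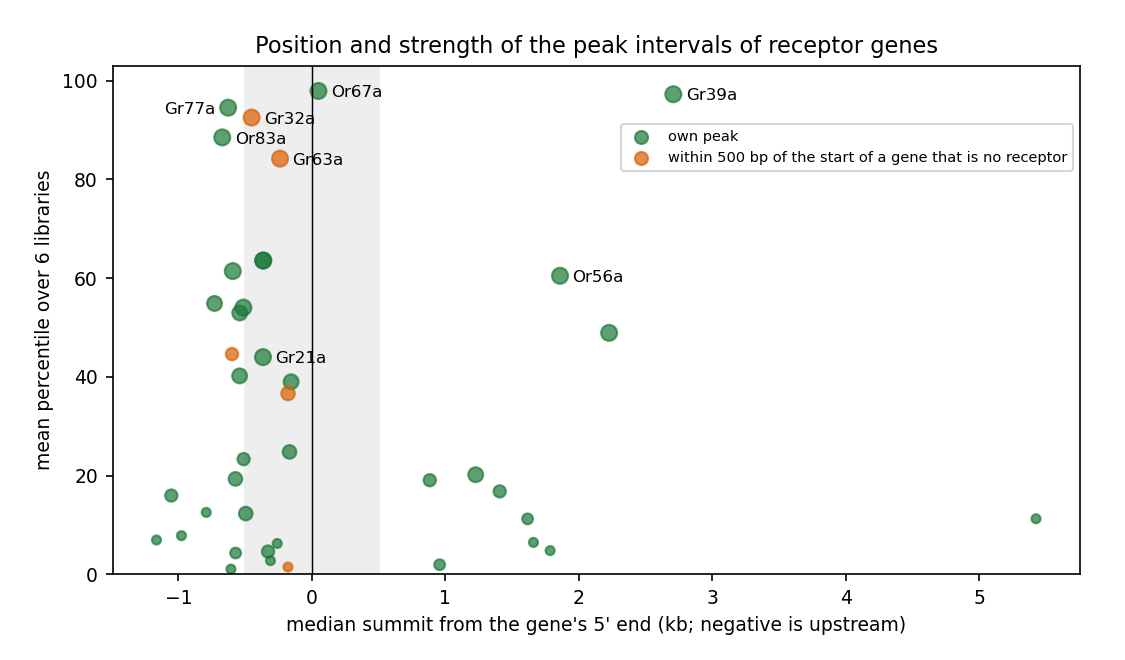
Distance of the median summit from the 5′ end of the receptor gene (x axis, kb, negative is upstream) and mean percentile over the 6 libraries (y axis) for each pair of interval and gene, with larger points for more libraries and the 500 bp around the 5′ end shaded. *Or67a* is the high own point next to the 5′ end, at 97.9 and 50 bp, while *Gr77a* and *Or83a* lie just outside the shading.

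Many receptor genes lie in tandem groups. With gaps of at most 5000 bp, 50 genes formed 18 groups, and 11 of the 50 genes (22.0%) had a peak in any library and 3 in all 6. Of the 69 single genes, 25 (36.2%) had a peak in any library and 10 in all 6, a difference that was not tested. In the group of 6 sugar receptor genes *Gr64a* to *Gr64f*, a peak was found at *Gr64a* alone, with its summit 580 bp from the start of *CG11594*. Of 19 receptor genes inside another gene, 6 (31.6%) had a peak, against 30 of 100 others (30%). *Gr94a*, which lies inside *p53*, was among those with none.

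The motif content was counted on both strands as a description. GAGAG was present in the 151 bases around the summit in 9 of 35 own receptor intervals (25.7%), against 22.3% of all 45278 intervals, and TATCGATA, the DNA replication-related element (DRE) of many housekeeping promoters, in 0 of 35, against 0.731%. In the 300 bases from 250 before to 50 after the 5′ end, TATCGATA was found in 1 of 119 receptor promoters (0.840%), against 9.43% of 13826 other promoters. GGTCACACT, known as motif 1 of housekeeping promoters, was found in 0 of 119, against 6.10%. GAGAG was present in 23.5% of receptor promoters, against 29.8% of others. TATAAA was present in 53.8% of receptor promoters, against 45.7% of others, and the median GC content was 39.7%, against 38.0%. In the own intervals, AACNGGTT (Grainyhead) was found in 0 of 35, against 3.24% of all intervals, GGAATG (TEAD) in 1, against 9.22%, CAGCTG (an E-box) in 2, against 9.82%, and TATAAA in 2, against 5.94%. In the promoters, GGAATG was found in 10.9% of receptor genes and 10.9% of others. CAGCTG was found in 9.24%, against 17.7%, and AACNGGTT in 2.52%, against 4.62%. The letters of no motif contain those of another. A match does not show that a factor binds, nor the lack of one that it does not.

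The next question was whether either cell-cycle block changed the receptor peaks. Presence of a peak was compared first, with a gene called gained when both libraries of a genotype and neither control had a peak, and lost in the reverse case. In *Cdk1-i*, 2 receptor genes of 119 were gained (background 1% of all 13986 genes) and 1 was lost (background 0.658%). In *fzr*, 0 were gained (background 0.551%) and 1 was lost (background 1.03%). These counts are near the background shares. They also moved with single libraries, with 6 gained in *Cdk1-i* without control replicate 1, and 3 gained and 5 lost in *fzr* without *fzr* replicate 1. Leaving out a library of either group compared loosens the rule for every gene. The share over all genes was not counted there, so these rises cannot be read as a result about the receptors.

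*Or63a* (FBgn0035382, chr3L:2961534-2963788, plus strand), an odorant receptor gene, was gained in *Cdk1-i*. Its peak had a percentile of 30.4 and 36.8 in the *Cdk1-i* libraries (fold enrichment 3.13 and 3.26), with none in *fzr* or control. The summit lay in a coding exon, 1617 bp into the gene, the only own interval of this kind. In the other 4 libraries the nearest peak was 3966 to 4003 bp away from the window.

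*Gr5a* (FBgn0003747, chrX:5680617-5682488, plus strand), a receptor for the sugar trehalose, was also gained in *Cdk1-i*. Its peak had a percentile of 88.5 and 89.0 in *Cdk1-i* and 90.1 in *fzr* replicate 1, and no peak was in the window in *fzr* replicate 2 or either control. This peak is 42 bp from a start of *Tre1*, a receptor gene of germ cell migration, and only 15 to 25 bp of it lay in the window of *Gr5a*. Control replicate 2 had a peak at the same place (chrX:5679940-5680110, percentile 80.1) that ended 6 bp short of that window. The gain therefore rests on the window's edge, and it was not counted when own peaks alone were used.

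*Gr59d* (FBgn0041236, chr2R:23103941-23105169, minus strand), a gustatory receptor gene, was the gene lost in both genotypes. It had a weak peak at 13.8 and 12 in control (fold enrichment 2.51 and 2.204), with 26 and 34 bp inside the window, and none in *Cdk1-i* or *fzr*. With a minimum -log10 q of 5, neither control peak remained.

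The strength of the peaks was then compared with limma on the percentiles of the 5181 genes with a peak in all 6 libraries, which include 13 receptor genes. At a limma adjusted p under 0.05, 0 receptor genes changed in *Cdk1-i* or in *fzr*, and so did 0 of all 5181 genes (background 0.00% in each direction). At an unadjusted limma p under 0.05, 1 receptor gene was higher in *Cdk1-i* (background 3.26%) and 0 were lower (background 2.74%). For *fzr*, 1 was higher (background 2.12%) and 4 were lower (background 7.43%). With all lists cut to the same length, 12 receptor genes were tested, without *Gr21a*. In *fzr*, 1 of them had an unadjusted limma p under 0.05, *Gr32a*, which was higher. The background was 7.35% of 4859 genes in both directions together, so this count is near it. The median change of the 13 was 0.147 points in *Cdk1-i*, with 0.153 over all genes, and -6.34 points in *fzr*, with -1.84 over all genes. The *fzr* median was -0.978 without control replicate 2 and 1.12 once every list was cut to the same number of peaks. Without *fzr* replicate 1, limma called 323 of 5274 genes in *fzr*, 0 of them receptor genes, and without control replicate 2 it called 8 genes in *Cdk1-i*, again with 0 receptor genes.

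Non-overlap of the libraries was counted from the same percentiles and is no separate test. Both *Cdk1-i* percentiles were above both controls in 1 receptor gene (background 21.6%) and below in 1 (background 20.1%). Both *fzr* percentiles were above both controls in 1 (background 8.43%) and below in 4 of the 13 (background 28.3%). These 4 were *Gr21a*, *Gr98b*, *Or83a* and *Gr77a*. Their share is near the background, so this count is no trait of the receptors.

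**Figure D4:**
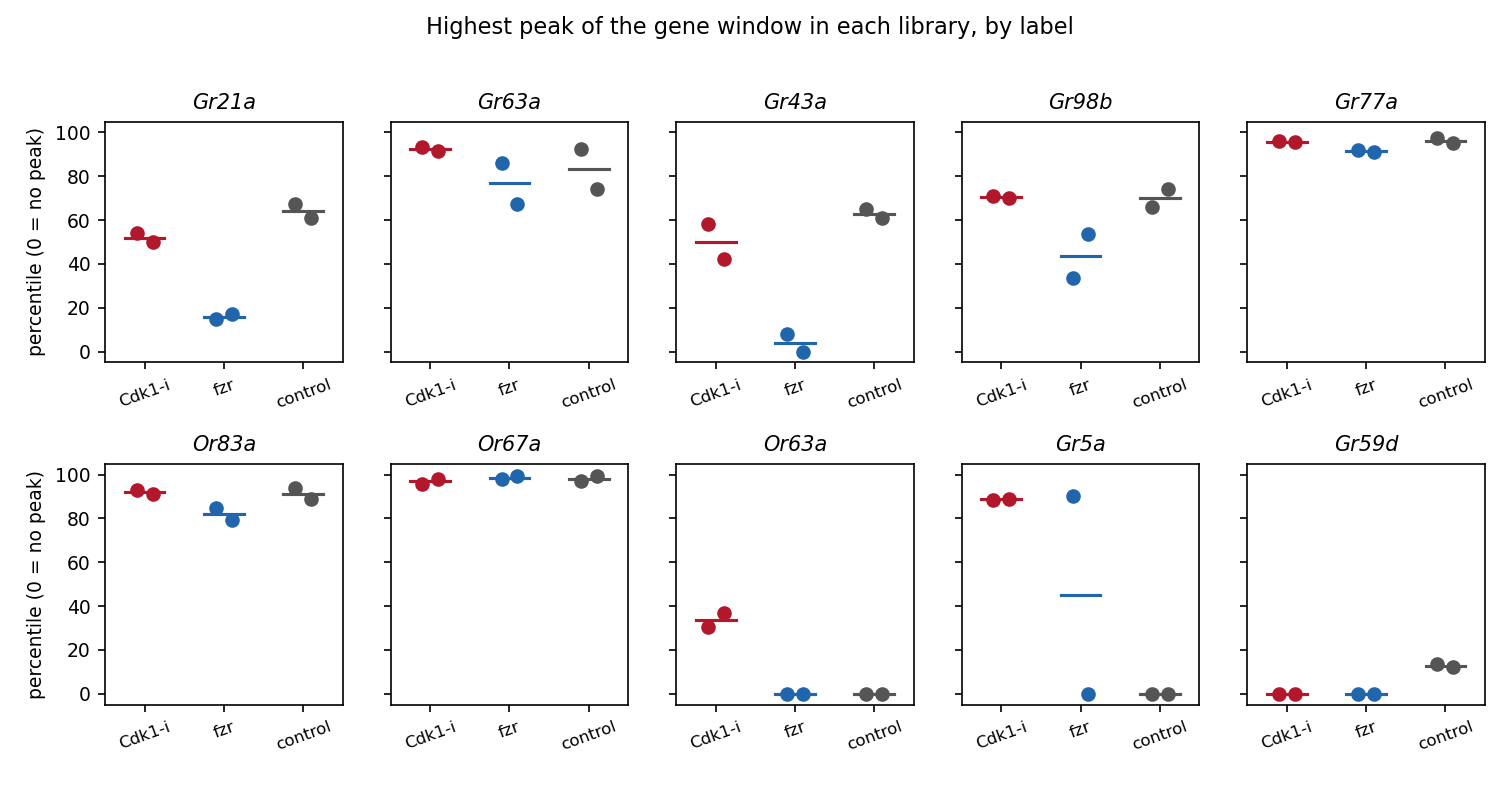
Within-list percentile of the highest peak (y axis, 0 for no peak) of 10 receptor genes in each library (points), with the mean of each labelled genotype (lines), for *Cdk1-i*, *fzr* and control. *Gr21a* lies at 14.7 and 17.0 in *fzr*, below its 4 other libraries, and *Or67a* lies over 95 in every library.

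*Gr21a* (FBgn0041250, chr2L:780482-782885, plus strand) encodes a subunit of the carbon dioxide receptor. Its peak, chr2L:779905-780366 with the summit 366 bp upstream, had a percentile of 54.1 and 49.8 in *Cdk1-i*, 14.7 and 17.0 in *fzr* and 67.3 and 61.0 in control. The fold enrichment was 4.20 and 3.82 in *Cdk1-i*, 2.61 and 2.28 in *fzr* and 4.45 and 3.49 in control, so the *fzr* libraries were the lowest on both scales and did not overlap the others. *Cdk1-i* lay below control in percentile but overlapped it in fold enrichment. In limma the percentile was 48.3 points lower in *fzr* than in control (change -48.3, SE 8.60, unadjusted p = 0.00127, adjusted p = 0.519), which does not pass over all genes. Over the alternatives in which it was tested, its limma adjusted p ranged from 0.0604, without *fzr* replicate 1, to 0.825.

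*Gr63a* (FBgn0035468, chr3L:3894999-3896603, minus strand), the other subunit of the carbon dioxide receptor, did not share this pattern. Its percentile was 93.2 and 91.6 in *Cdk1-i*, 86.1 and 67.4 in *fzr* and 92.7 and 74.3 in control, and *fzr* overlapped control. This peak lies 59 bp from the start of *Lamtor4*, so it is not an own peak of *Gr63a*.

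*Gr43a*, a fructose receptor of taste and brain neurons, had a peak 155 bp before its 5′ end at 58.0 and 42.2 in *Cdk1-i*, 7.97 and none in *fzr* and 64.9 and 61.0 in control. The *fzr* libraries were again the lowest. Since 1 library had no peak, the gene was outside the limma test of genes with 6 peaks. With a library without a peak counted as 0, *Gr43a* had the lowest limma p of the receptor genes in *fzr*. It did not pass over all genes (unadjusted p = 0.00685, adjusted p = 0.601). *Gr98b*, which takes part in the detection of the bitter compound L-canavanine, had 71.2 and 70.0 in *Cdk1-i*, 33.5 and 53.5 in *fzr* and 66.1 and 74.3 in control, a limma change of -26.7 points in *fzr* (SE 9.21, unadjusted p = 0.0266, adjusted p = 0.519).

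*Or83a* and *Gr77a* were lower in *fzr* by less. With all lists cut to the same length, neither they nor *Gr98b* had an unadjusted limma p under 0.05 in *fzr*. The values that follow are those of the full lists. *Or83a* had 93.2 and 91.2 in *Cdk1-i*, 84.8 and 79.3 in *fzr* and 94.1 and 88.7 in control, a limma change of -9.37 points (SE 3.67, unadjusted p = 0.0427, adjusted p = 0.519). *Gr77a* had 96.1 and 95.5 in *Cdk1-i*, 92.0 and 91.2 in *fzr* and 97.4 and 95.1 in control, a limma change of -4.65 points (SE 1.46, unadjusted p = 0.0183, adjusted p = 0.519).

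*Gr32a*, a receptor for bitter compounds and for a male pheromone, was the only one among the 13 receptor genes with a peak in all 6 libraries whose *Cdk1-i* and *fzr* percentiles all lay above both controls. Its percentile was 97.0 and 97.2 in *Cdk1-i*, 95.1 and 92.0 in *fzr* and 89.1 and 84.8 in control. The limma change was 10.2 points in *Cdk1-i* (SE 2.35, unadjusted p = 0.00478, adjusted p = 0.822) and 6.60 points in *fzr* (SE 2.35, unadjusted p = 0.0304, adjusted p = 0.519), and both comparisons share the control libraries. The peak overlaps the start region of *Idua*, whose start is 502 bp from the summit. *Gr32a*, *Gr64a* and *Gr94a* were chosen for mention after their values were seen.

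Among genes that work with the receptors, *Orco* had a window peak in all 6 libraries and a 5′ peak at 24.5 and 30.01 in *Cdk1-i*, 33.5 and none in *fzr* and 41.0 and 41.3 in control. Of the 8 co-factor genes listed, *acj6* and *pdm3*, regulators of receptor choice, also had a window peak in all 6. Among co-receptors of the Ir family, *Ir25a* and *Ir76b* had none, whereas *Ir8a* had one in 5 libraries. *Snmp1* and *lush* had one in 4 libraries each.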

How the data were processed

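ATAC-seq libraries came from wing imaginal discs, 2 for each of 3 genotypes. The authors ran the nf-core/atacseq pipeline, with BWA-MEM for alignment against dm6, a blacklist filter and MACS2 for the peaks of each library by itself. The threshold of the calls is not given in the sources used here. The deposited lists hold for each peak its fold enrichment (a ratio to the local background), a -log10 p, a -log10 q and a score, and the lowest -log10 q in a list was 2.00 to 2.16. Read counts were not used here, so depth is unknown.

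Genes, windows and own peaks came from the Ensembl annotation of dm6 coordinates, and all peaks end inside the reference chromosomes. Percentiles were taken within a list, with ties averaged. They were compared with limma 3.58.1 (R 4.3.3, a mean-dependent prior, all 6 libraries, no block) over the 5181 genes with a peak in every list, with Benjamini-Hochberg adjustment at 0.05. The code was tested on simulated data. The work was done in Python 3.11.15 with pandas 2.3.3, NumPy 2.4.6, Matplotlib 3.10.9 and SciPy 1.17.1.

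The genes named were those with an own peak in all 6 lists, those gained or lost, any past the adjusted threshold, 12 receptors of known use, and Cdk1 and fzr. Members, lists and tests were chosen with earlier results of these data known. The alternatives were exchanged labels, lists of the same length (the 27119 peaks strongest by -log10 q), a minimum -log10 q of 5, at least 0.5 of the peak inside the window, the 500 bp around the 5′ end, own peaks alone, ranking by -log10 p, log2 fold enrichment, a library without a peak counted as 0, the autosomal arms alone, leaving out each library and a replicate block.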

Additional observations from a re-analysis of the deposited data

How the results depend on the processing

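With the labels of Cdk1-i and fzr exchanged, the difference in the share of receptor genes with a peak was -2.94 points in Cdk1-i and 1.68 points in fzr, the genes gained were 0 and 2, and the median change in percentile was -6.34 and 0.147. An equal number of peaks per list gave a mean share over all libraries of 17.5%, an own share of 14.7%, a difference for fzr of -0.420 points, a median change for fzr of 1.12, where the main value was -6.34, and 0 genes lost in Cdk1-i. With at least 0.5 of the peak inside the window, the mean share was 10.2%, the own share 7.98%, the median change for fzr -3.08, and 1 gene was gained in Cdk1-i. Around the 5′ end alone, the mean share was 16.4%, with 1 gene gained in Cdk1-i and 2 lost in fzr. Own peaks alone gave a share of 17.4%, and 1 gene was gained in Cdk1-i with own peaks and also on the autosomal arms alone. A minimum -log10 q of 5 gave a difference of 3.78 points for Cdk1-i and 0 genes lost there. For genes gained or lost, the share over all genes was counted in the main setting alone.

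Leaving out 1 library at a time, the genes gained ranged over 2 to 6 in Cdk1-i (6 without control replicate 1) and 0 to 3 in fzr (3 without fzr replicate 1, 2 without fzr replicate 2). The genes lost ranged over 1 to 2 in Cdk1-i and 1 to 5 in fzr (5 without fzr replicate 1). The rule is looser when a compared library is left out, and no share over all genes was counted beside these numbers. The difference in share was 0.420 to 2.94 points in Cdk1-i and -4.20 to -1.68 points in fzr, and the median change -1.90 to 2.88 for Cdk1-i and -6.70 to -0.978 for fzr. The mean share was 19.7% to 20.7% and the own share 17.0% to 18.0%. The cause of these differences was not tested.

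In limma, 0 receptor genes passed the adjusted threshold in either genotype under the alternatives that kept every library. In these, 0 of all genes tested passed as well, so the count is no trait of the receptors. Exchanged labels repeat the main fit with the genotype names swapped and are no separate test. The replicate numbers are not known to pair the libraries, whose deviations in percentile correlated at 0.105 (Cdk1-i and fzr), 0.220 (Cdk1-i and control) and 0.298 (fzr and control). With the replicate number as a block, 0 receptor genes passed in Cdk1-i and 0 in fzr. Peak lists without counts limit what can be said of genes with no peak.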
